A study of Mus musculus with 11 samples.

Results

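The replication-dependent histone genes lie in clusters, and their promoters were read here from one list of accessible chromatin regions in a mouse bone cell line. The set was chosen by name: the protein-coding genes whose GENCODE symbol starts with Hist1h on chromosome 13, Hist2h on chromosome 3 or Hist3h on chromosome 11, with every region that reaches within 1000 bp of one of their transcript starts in the annotation and every region between genes of the same cluster. It held 66 of 21938 protein-coding genes, 54 of them on chromosome 13, 10 on chromosome 3 and 2 on chromosome 11, and 86 of the 94963 regions in the list. Of these 86 regions, 30 lay within 1000 bp of a histone start and 56 lay elsewhere in the spans of the clusters.

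The study used ATAC-seq, in which the Tn5 transposase cuts and tags open chromatin, on MPC2 cells, a single clone of a mouse mesenchymal progenitor line that divides at a permissive temperature and differentiates in mineralizing medium. The 11 samples were 3 vehicle (DMSO) cultures of undifferentiated cells (MSC), 3 MSC cultures given FG-4592, 2 vehicle cultures of osteocytes and 3 osteocyte cultures given FG-4592. Osteocytes had differentiated for 3 weeks, and FG-4592 (Roxadustat), which inhibits the prolyl hydroxylases that mark hypoxia-inducible factor for destruction, was applied at 50 uM for 48 hours; no genetic change separates the groups. The list analysed here gives each region 1 value, read as the average log2 CPM (transposase cuts, scaled for the size of each library) over the samples, so neither cell stage nor drug could be compared, no spread between replicates can be given for any value, and depth per sample is unknown.

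Because all samples share one value, the labelled cell types could be checked only together. Regions lay within 1000 bp of the start of 4 of 5 mesenchymal progenitor markers (Prrx1, Pdgfra, Pdgfrb and Eng, but not Thy1), 5 of 5 osteoblast lineage genes and 1 of 5 osteocyte markers. Dmp1 had a region at 4.41 log2 CPM, whereas Sost, Mepe, Phex and Pdpn had none. These markers were chosen after the list had been examined. Of other coding genes, 64.1% had a region within 1000 bp of any annotated start, whereas only the most upstream start was used for the markers. Whether the marker counts differ from that share was not tested.

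Histones are the proteins around which DNA is wound. H2A, H2B, H3 and H4 form the core of the nucleosome and H1 binds the linker DNA between cores. Most cells make the bulk of these proteins in S phase from many near-identical genes without introns, whose mRNAs end in a stem-loop, bound by the stem-loop binding protein Slbp, in place of a poly(A) tail. The coactivator Npat gathers at the clusters in histone locus bodies, and Hinfp is known for driving H4 genes, Oct-1 for binding the octamer of H2B promoters and NF-Y for binding CCAAT boxes.

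The sequences between paired H2A and H2B genes are shown first because these genes stand back to back and share a short stretch of DNA from which both are transcribed. Each is given 5′ to 3′ on the plus strand of GRCm38 (mm10) from GENCODE start to start, with the TATA box (TATAAA), the CCAAT box and the octamer (ATTTGCAT), on either strand, in capitals. The first 3 pairs had an accessible region over both starts and the last 2 had none.

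Hist1h2ac/Hist1h2bc: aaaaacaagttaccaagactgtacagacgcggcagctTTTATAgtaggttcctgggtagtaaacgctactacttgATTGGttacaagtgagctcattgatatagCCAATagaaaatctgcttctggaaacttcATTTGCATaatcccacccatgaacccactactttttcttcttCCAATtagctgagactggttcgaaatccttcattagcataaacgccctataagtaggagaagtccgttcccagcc
Hist1h2ae/Hist1h2bg: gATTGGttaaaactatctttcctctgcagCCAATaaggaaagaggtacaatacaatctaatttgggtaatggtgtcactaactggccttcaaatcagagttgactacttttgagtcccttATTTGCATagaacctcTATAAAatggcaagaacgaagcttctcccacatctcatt
Hist1h2bf/Hist1h2ad: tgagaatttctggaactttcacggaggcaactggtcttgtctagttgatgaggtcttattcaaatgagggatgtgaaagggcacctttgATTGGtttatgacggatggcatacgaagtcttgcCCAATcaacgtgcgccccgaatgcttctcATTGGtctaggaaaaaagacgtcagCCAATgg
Hist1h2ap/Hist1h2br: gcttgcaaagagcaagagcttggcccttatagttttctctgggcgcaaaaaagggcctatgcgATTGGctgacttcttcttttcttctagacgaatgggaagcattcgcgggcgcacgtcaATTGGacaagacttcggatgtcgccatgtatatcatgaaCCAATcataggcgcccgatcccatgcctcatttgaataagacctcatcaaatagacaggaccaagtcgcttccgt
Hist2h2ac/Hist2h2be: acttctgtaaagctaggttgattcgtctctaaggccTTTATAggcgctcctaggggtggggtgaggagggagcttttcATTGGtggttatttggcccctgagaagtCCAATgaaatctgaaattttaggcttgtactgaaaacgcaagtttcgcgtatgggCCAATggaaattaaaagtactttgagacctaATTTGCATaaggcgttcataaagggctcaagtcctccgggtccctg

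In the order printed these stretches are chr13:23683949-23684198, chr13:23571221-23571395, chr13:23574197-23574380, chr13:21833508-21833742 and chr3:96220881-96221118. CCAAT occurred between the starts of 7 of 7 pairs with a shared region and 6 of 6 with none listed, TATAAA between those of 4 and 4, and the octamer ATTTGCAT between those of 3 and 2, and these counts were not tested. The stretch of Hist1h2ap and Hist1h2br is 235 bases long, and all 235 recur on the opposite strand between Hist1h2bq and Hist1h2ao. Among the other combinations of the 13 pairs, the longest shared run was 25 bases.

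H4 promoters are shown next, as the 150 bases before the GENCODE start in the direction of transcription. All 12 H4 genes encode 1 identical protein of 103 residues, while their promoter regions differed widely in level and width. Capitals mark the TATA box, the CCAAT box and a core of the site known for Hinfp (GTCCGC), on either strand. Hist1h4a and Hist1h4h had the highest H4 regions, Hist1h4c the next and Hist1h4i one of the lowest.

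Hist1h4a: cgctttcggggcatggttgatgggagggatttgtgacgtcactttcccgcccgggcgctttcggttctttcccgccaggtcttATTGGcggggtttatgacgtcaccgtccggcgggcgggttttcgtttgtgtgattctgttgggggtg
Hist1h4h: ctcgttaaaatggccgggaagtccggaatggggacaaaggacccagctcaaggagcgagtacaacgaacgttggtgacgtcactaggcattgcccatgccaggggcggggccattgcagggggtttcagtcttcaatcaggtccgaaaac
Hist1h4c: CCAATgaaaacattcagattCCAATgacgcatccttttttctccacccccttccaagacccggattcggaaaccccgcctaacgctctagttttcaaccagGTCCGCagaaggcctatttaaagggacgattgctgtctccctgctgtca
Hist1h4i: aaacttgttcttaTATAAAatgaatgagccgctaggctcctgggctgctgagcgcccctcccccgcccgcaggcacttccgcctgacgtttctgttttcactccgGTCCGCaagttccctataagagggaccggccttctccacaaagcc

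An accessible region lay within 1000 bp of a start in 37 of 66 histone genes (56.1%, 95% Wilson interval 44.1 to 67.4), and in each of these 37 genes the start itself lay inside a region. The share was 64.1% of 21872 other protein-coding genes, 29.2% of 1288 other genes with a single exon and 91.9% of 8377 other genes with a CpG-rich start, which here means at least 55% G and C and an observed-to-expected CpG ratio of at least 0.6 within 500 bp. CpG content did not separate the histone genes with a region from those without: 15 of 29 CpG-rich and 22 of 37 other histone genes had one. All intervals cover counting error only, and genes that share a region are not independent.

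The share of genes with a region differed with location. On chromosome 13, 36 of 54 histone genes had a region, against 0 of 10 on chromosome 3 and 1 of 2 on chromosome 11. The genes of chromosome 13 form blocks separated by more than 100 kb. In the block from Hist1h4h to Hist1h1a, 233 kb long, 25 of 29 genes had a region, and in the small block from Hist1h2ah to Hist1h2bj all 5 of 5 did. In the block from Hist1h2bl to Hist1h2br, 122 kb long, 6 of 18 genes had a region, and these were the 6 at its Hist1h2bl end. The isolated pair Hist1h2ba and Hist1h2aa had none.

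**Figure D1:**
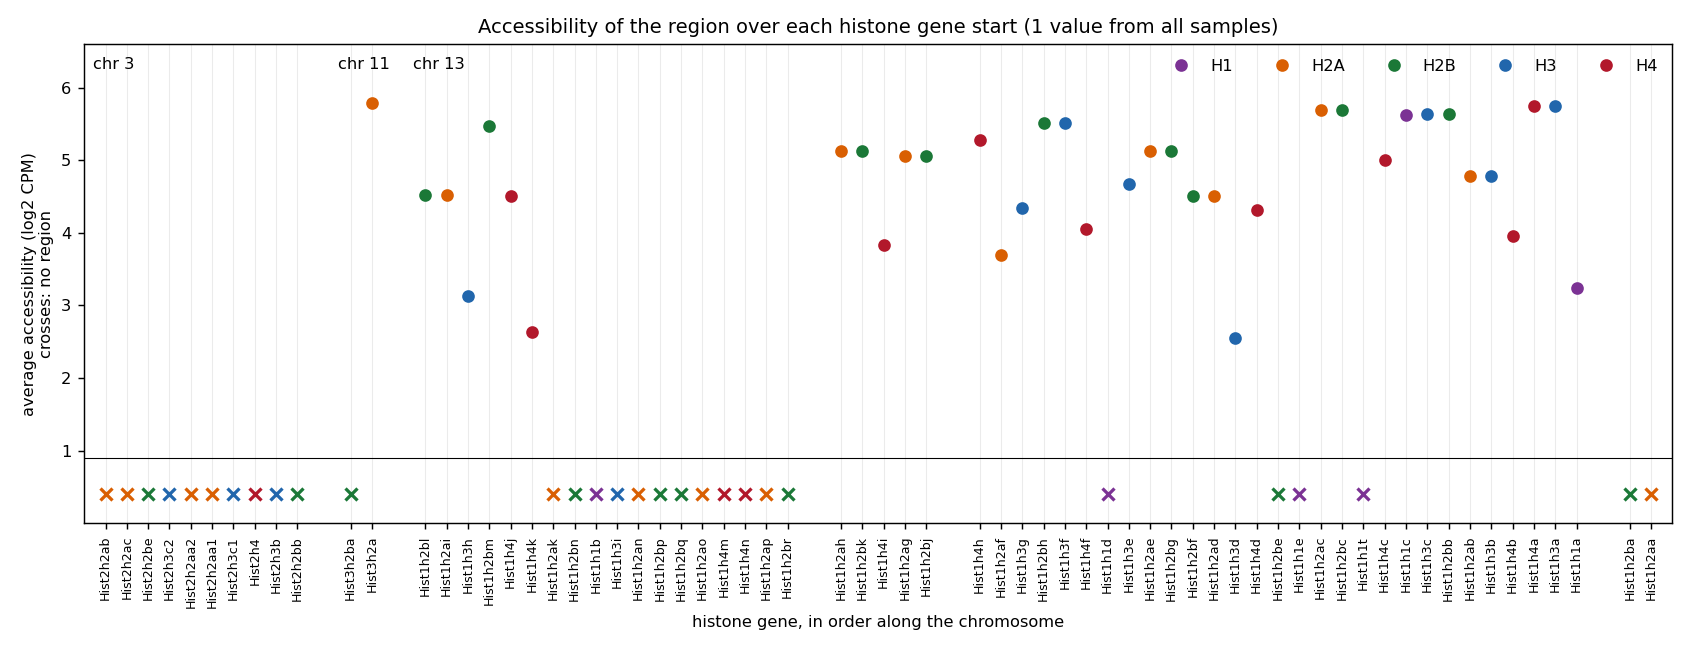
Average accessibility (log2 CPM, y axis) of the region over each histone gene start, with the 66 genes in order along chromosomes 3, 11 and 13 (x axis; spaces separate blocks more than 100 kb apart); colours give the histone class and crosses the 29 genes without a region. The crosses fill chromosome 3 and one end of the first block on chromosome 13, and neighbouring genes that share a region have the same level.

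By class and GENCODE start, a region was present at 2 of 6 H1 genes, 9 of 18 H2A genes, 9 of 18 H2B genes, 8 of 12 H3 genes and 9 of 12 H4 genes. For the region over the start, the median level was 4.43 log2 CPM in H1, 5.06 in H2A, 5.13 in H2B, 4.73 in H3 and 4.32 in H4. The ranges overlapped between classes, from 3.70 to 5.79 in H2A, 4.50 to 5.69 in H2B, 2.54 to 5.75 in H3 and 2.63 to 5.75 in H4. H2A and H2B genes largely share regions, so their similar medians are in part the same values. Per kilobase of region the class medians lay closer together, at 4.56 log2 CPM per kb in H1, 4.74 in H2A, 4.74 in H2B, 4.54 in H3 and 4.59 in H4.

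Among the H2A genes, Hist3h2a on chromosome 11 had the highest level of all histone genes, 5.79 log2 CPM in a region of 1406 bp (chr11:58954021-58955426), which also lies within 1000 bp of a start of Trim17, a ubiquitin ligase gene. Hist1h2ac followed at 5.69 and Hist1h2ah at 5.13, each in a region shared with an H2B gene. The lowest H2A levels were those of Hist1h2af at 3.70, Hist1h2ad at 4.50 and Hist1h2ai at 4.53. For Hist1h2af the region of its neighbour Hist1h3g, at 4.34, also reached within 1000 bp. It was the higher of the 2, but it did not hold the start of Hist1h2af.

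Among the H2B genes, Hist1h2bc reached 5.69 log2 CPM in the region it shares with Hist1h2ac (chr13:23683467-23684971), Hist1h2bb 5.64 in a region shared with Hist1h3c, and Hist1h2bh 5.52 in a region shared with Hist1h3f. Hist1h2bm, at 5.47, was the only H2B gene whose region over the start held no start of another coding histone gene. At the lower end stood Hist1h2bf at 4.50, Hist1h2bl at 4.53 and Hist1h2bj at 5.06. Unlike the other core classes, H2B had no start region below 4.50.

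Among the H3 genes, Hist1h3a was at 5.75 log2 CPM in a region shared with Hist1h4a (chr13:23760529-23762582), the widest of the histone regions at 2054 bp. Hist1h3c was at 5.64 and Hist1h3f at 5.52. Hist1h3g at 4.34, Hist1h3h at 3.13 and Hist1h3d at 2.54 were the lowest by the region over their start. For Hist1h3h and Hist1h3d a higher region within 1000 bp, at 4.53 and 4.50, belonged to the neighbouring H2A and H2B pair. By the highest region within reach, the 3 lowest H3 genes would be Hist1h3g, Hist1h3d and Hist1h3h, so the set is the same.

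Among the H4 genes, Hist1h4a was at 5.75 log2 CPM, Hist1h4h at 5.28 and Hist1h4c at 5.00. Hist1h4j was at 4.51, Hist1h4d at 4.32, Hist1h4f at 4.05, Hist1h4b at 3.96 and Hist1h4i at 3.83. Hist1h4k, at 2.63 in a region of 540 bp (chr13:21750157-21750696), was the lowest. The 9 accessible H4 genes thus ran from 2.63 to 5.75 although all encode the same protein, from 11 different coding sequences in 12 genes. Their regions also differed in width, from 540 to 2054 bp, and per kilobase they ran from 3.52 to 5.14 log2 CPM per kb.

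By GENCODE starts, 2 of 6 linker histone genes had a region, and by RefSeq starts 3 of 6. Hist1h1c was at 5.62 log2 CPM over 1591 bp and Hist1h1a at 3.24 over 528 bp. Hist1h1b, Hist1h1d, Hist1h1e and Hist1h1t had none by GENCODE starts, while the RefSeq start of Hist1h1d lay inside a region at 4.87 log2 CPM. Hist1h1t, known as the linker histone of the testis, has its start 1620 bp from the nearest region, which is that of Hist1h4c.

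Levels, not adjusted for region width, also varied among genes of the other classes that encode the same protein. The 18 H2A genes encode 9 proteins, and the commonest, shared by 9 genes, had a region at 6 of them, from 4.50 to 5.69 log2 CPM. The coding sequences annotated for the 12 H3 genes give 3 proteins, and 5 of the 7 genes with the commonest one had a region, from 2.54 to 5.64. Hist2h3c1 alone gives 1 of the 3, from an annotated coding sequence of 543 bases, against 408 at Hist2h3c2. Those of the 18 H2B genes give 12 proteins, of which the commonest is shared by 4 genes, 3 of them with a region, from 4.50 to 5.06. They include longer annotated coding sequences, of 414 bases at Hist1h2bp and 402 at Hist1h2bq and Hist1h2br, against 378 at Hist1h2bl. Whether such longer transcript models raise the protein counts was not tested. The 6 H1 genes encode 6 different proteins.

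The 30 promoter regions had a median level of 4.52 log2 CPM (95% interval from order statistics 3.96 to 5.12) and ranged from 2.06 to 5.79. Promoter regions of other coding genes, 17823 in number, had a median of 4.31, and 19 of the 30 histone regions lay above it. The order of these medians depended on how promoter regions were defined: the difference, 0.20 here, was -0.33 with only the most upstream start of each gene, -0.24 with only regions that hold a start and -0.37 against CpG-rich promoters. No test was made, since regions are not replicates. Together the 30 regions held 0.0784% of the summed CPM of the list in 0.0316% of its regions.

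The median width of the histone regions was 1084.5 bp (95% interval 709 to 1381), an interval that includes the 953 bp of other coding promoter regions and the 1080 bp of CpG-rich ones. Wider regions also had higher levels among other coding promoters. Compared with other coding promoter regions of similar width, in 20 bins, the histone regions differed by a median of 0.14 log2 CPM (-0.11 to 0.40), an interval that includes 0. This median combined opposite parts, a contrast that was noticed after the values were seen: all 14 histone regions under 1000 bp lay above the median of their width bin, by a median of 0.72, whereas of the 16 regions of 1000 bp or more only 4 did, with a median difference of -0.26.

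**Figure D2:**
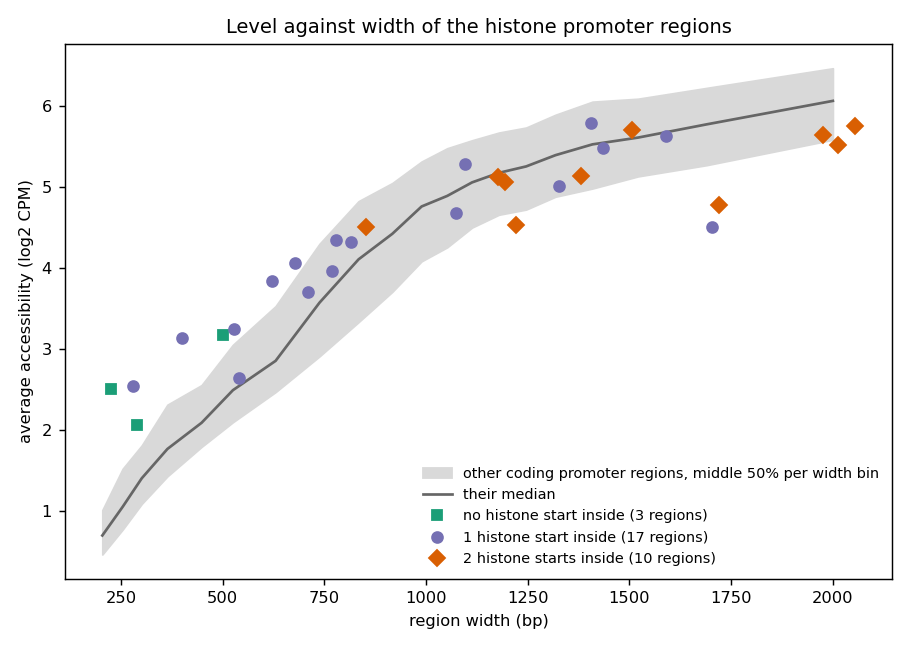
Average accessibility (log2 CPM, y axis) against width (bp, x axis) of the 30 histone promoter regions, marked by the number of histone starts they hold; the line and band give the median and the middle 50% of other coding promoter regions in 20 width bins. Narrow histone regions sit above the line and 8 of the 10 regions with 2 starts sit below it.

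Sharing was common. Of the 27 regions that held a histone start, 10 (37.0%) held the starts of 2 histone genes, whereas 9.46% of 13235 regions with a start of another coding gene held 2 or more genes. Regions with 2 histone starts had a median level of 5.12 log2 CPM and a median width of 1443 bp, against 4.32 log2 CPM and 778 bp for the 17 with 1 start. Per kilobase of region the values were close, at 4.69 and 4.58 log2 CPM per kb, so the higher level went with the greater width. Against other promoters of their width, 2 of the 10 regions with 2 starts and 13 of the 17 with 1 start lay above the median.

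Most of this sharing came from divergent genes. Neighbouring histone genes on opposite strands with starts within 1000 bp formed 13 pairs, 12 of H2A with H2B and 1, Hist1h2bh with Hist1h3f, of H2B with H3. In 7 pairs one region covered both starts, at 4.50 to 5.69 log2 CPM, and in the other 6 neither start had a region. No pair had a region at 1 start alone. The distance between starts did not differ much, with a median of 269 bp in pairs with a region and 254.5 bp in pairs without, over a range of 175 to 659 bp. The top of this range is the pair of Hist1h2bh and Hist1h3f. That pair rests on a GENCODE start of Hist1h3f 433 bases before its coding sequence, and no RefSeq start was matched to this gene. The remaining regions with 2 starts joined Hist1h4a with Hist1h3a and Hist1h2ab with Hist1h3b, which run in the same direction, and Hist1h3c with Hist1h2bb, which are divergent but start more than 1000 bp apart.

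Accessible regions extended from the promoter into the gene. From the start, the region over it extended a median of 664 bp upstream and 503 bp downstream in the 37 histone genes, against 439 bp and 663 bp in 11234 other coding genes. Histone genes are short, and a median of 90.0% of the gene lay inside its region, against 2.54% for other coding genes and 92.3% for the 62 other coding genes of at most 1 kb. The covered part was as small as 8.87% at Hist1h2bc. In 13 of the 37 genes the region ran past the end of the gene. At Hist1h3c and Hist1h2bh the region continued upstream over the divergent neighbour, for 1563 bp at Hist1h2bh.

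**Figure D3:**
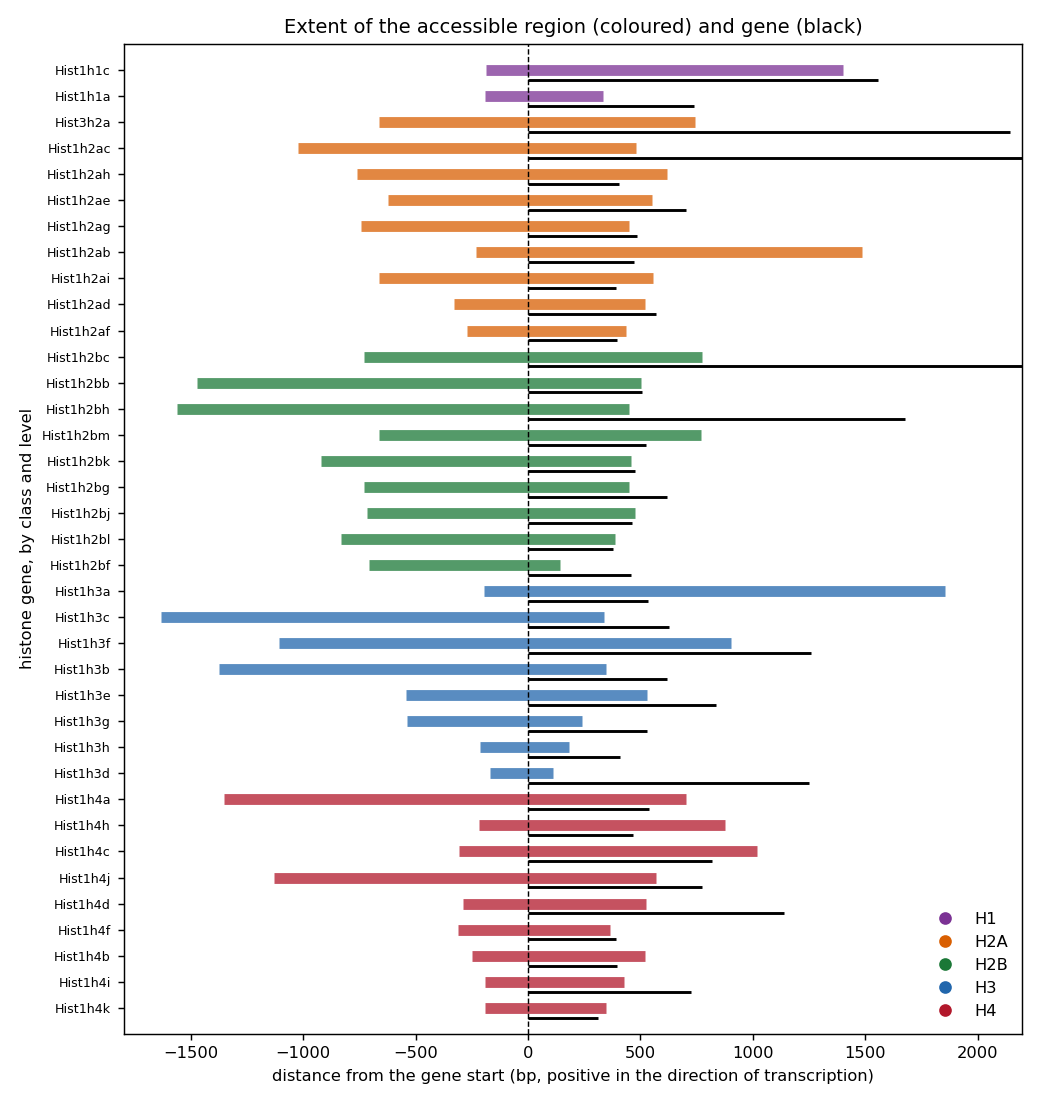
Extent of the region over each of the 37 accessible histone gene starts, in bp from the start along the direction of transcription (x axis), with genes grouped by class on the y axis; coloured bars are regions and black lines the annotated genes, cut off at the right edge where they are longer. Regions span the start in every gene, and in Hist1h3a and Hist1h2ab the long downstream part covers a neighbouring histone gene.

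The 29 histone genes without a region lay in 7 gaps between neighbouring regions of the list, whose median gap was 8161 bp. The longest, 108.9 kb on chromosome 3 (chr3:96181295-96290195), holds all 10 genes there: Hist2h2ab, Hist2h2ac, Hist2h2be, Hist2h3c2, Hist2h2aa2, Hist2h2aa1, Hist2h3c1, Hist2h4, Hist2h3b and Hist2h2bb. It also holds the starts of Bola1 and Sv2a. Of all gaps in the list, 3.43% were longer. The nearest regions on either side had levels of 0.97 and 0.89 log2 CPM.

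On chromosome 13, a gap of 104.4 kb (chr13:21750697-21855130) holds 12 histone genes: Hist1h2ak, Hist1h2bn, Hist1h1b, Hist1h3i, Hist1h2an, Hist1h2bp, Hist1h2bq, Hist1h2ao, Hist1h4m, Hist1h4n, Hist1h2ap and Hist1h2br. It begins directly after the region of Hist1h4k. The last 6 of these genes in the order given have starts at which 94.2% to 100% of the 50-base words within 500 bp recur elsewhere in the genome, against 0% to 52.5% at the first 6. Hist1h2ak starts 3131 bp from that region and Hist1h2br 21388 bp from the nearest region on the other side. Of these 12 genes, 8 have CpG-rich starts.

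A gap of 86.4 kb holds Hist1h2ba and Hist1h2aa, the testis H2B and H2A, together with the starts of Scgn and Slc17a4, and a gap of 12.5 kb holds Hist1h1t. None of the 3 testis histone genes therefore had a region. Hist3h2ba, on chromosome 11, lay in a gap of 9.7 kb next to the accessible Hist3h2a. Hist1h1e and the GENCODE start of Hist1h2be lay in a gap of 73.8 kb, and that of Hist1h1d in one of 2.9 kb.

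For 2 of these genes the choice of annotation decided the result. RefSeq, matched by symbol or synonym for 61 of the 66 genes, places the start of Hist1h1d 1770 bp from the GENCODE start, inside a region at 4.87 log2 CPM and 1782 bp wide. It lists a further start of Hist1h2be, 35108 bp from the nearest GENCODE start, inside a region at 4.62 log2 CPM and 1254 bp wide. With RefSeq starts, and GENCODE starts for the 5 unmatched genes, 39 of 66 histone genes had a region. The other unoccupied genes that RefSeq lists stayed without one.

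The authors dropped reads of low mapping quality and removed regions on the ENCODE blacklist, and their part in the absence of regions at histone genes was not tested. The share of 50-base words within 500 bp of the start that recur elsewhere on the chromosomes of GRCm38 had a median of 30.1% in histone genes, against 0% in 4375 other coding genes (1 gene in 5). It was 28.7% in histone genes with a region and 33.3% in those without. Above 50% repeated words, 2 of 13 histone genes had a region, as did 4.74% of other coding genes and 3 of 20 with a CpG-rich start. From above 10% to 50%, 33 of 43 histone genes had a region, against 34.1% of other coding genes and 93.5% of those with a CpG-rich start.

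The fully repeated starts were those of Hist1h2bq, Hist1h2ao, Hist1h2ap and Hist1h2br, all at 100%, and Hist2h3c2 and Hist2h3c1 were at 94.7%, Hist1h4n at 95.2% and Hist1h4m at 94.2%. None of these had a region. Repeated words were not a feature of every gene without one: of 10 histone genes with at most 10% repeated words, 8 had no region. Of other coding genes 73.7% at 0% and 56.8% from above 0% to 10% had one, and of those with a CpG-rich start 92.7% and 91.8%. The 8 genes were Hist1h1b, Hist1h1d, Hist1h2be, Hist1h1t and Hist2h2bb at 0%, Hist1h2aa at 0.84%, Hist2h4 at 1.68% and Hist2h2ab at 8.72%. They include Hist1h1d and Hist1h2be, each with a RefSeq start inside a region although words were counted at GENCODE starts, and 6 remain without these. The blacklist was not used here, so removal by the authors and absence of a peak cannot be told apart, and paired reads can map where a single word cannot.

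**Figure D4:**
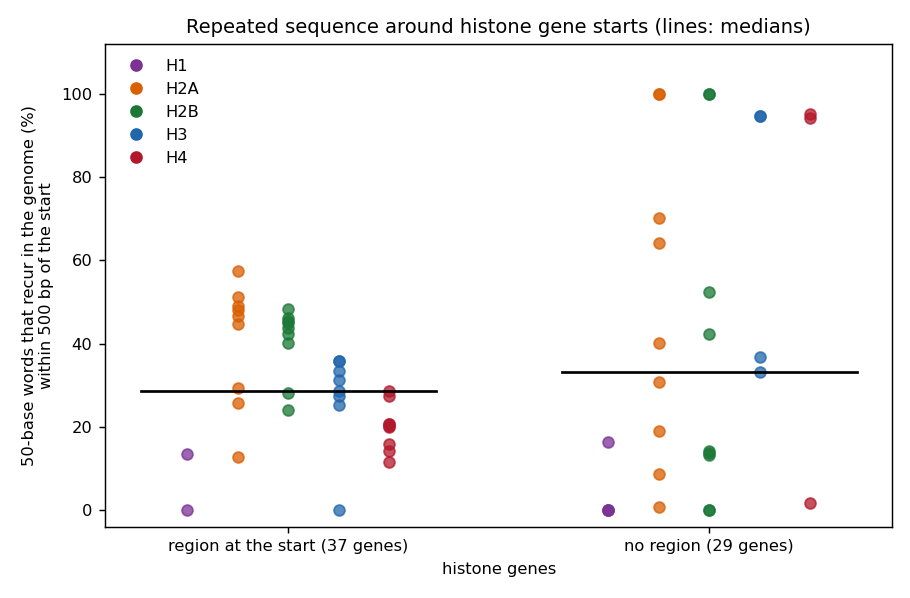
Share of 50-base words within 500 bp of the start that recur elsewhere in the genome (%, y axis) for the 37 histone genes with a region and the 29 without (x axis), coloured by class with the median as a line. Genes above 60% all lack a region, and genes near 0% occur on both sides.

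Promoter letters were counted from 250 bases before to 50 after the start, on both strands, and no motif searched contains another. Each share is given beside that of all 21938 coding genes. The CCAAT box (CCAAT) was present in 84.8% of histone genes against 39.0%, the TATA box (TATAAA) in 56.1% against 12.6%, the octamer (ATTTGCAT) in 22.7% against 1.57%, the HINFP core (GTCCGC) in 31.8% against 10.7%, and the E2F core (TTCCCGC) in 10.6% (95% Wilson interval 5.23 to 20.3) against 5.72%. Among other coding genes with a CpG-rich start the E2F core was likewise at 10.6%, the HINFP core at 20.7%, CCAAT at 36.6%, TATAAA at 4.69% and the octamer at 1.03%. The hypoxia response element core (ACGTG or GCGTG), the letters bound by hypoxia-inducible factor, was present in 40.9% against 47.6%, and in 69.8% of those with a CpG-rich start. In the region over the start the order turned against all coding genes, at 97.3% against 91.9%, with 96.7% for a CpG-rich start. In the 150 bases before the start it was at 25.8% in histone genes, 32.1% in all coding genes and 50.1% in CpG-rich ones. For the HINFP and E2F cores, too, the comparison depended on the window. In the region over the start the HINFP core was at 59.5% in histone genes, 48.9% in all coding genes and 59.6% in CpG-rich ones. The E2F core was there at 27.0%, 27.0% and 32.3%, in the same order. In the 150 bases before the start the HINFP core was at 18.2%, 5.90% and 11.2%. The E2F core was there at 9.09%, 3.20% and 6.04%. A match describes letters and is not evidence of binding.

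The shares of these letters differed between classes. CCAAT was present in 18 of 18 H2A, 18 of 18 H2B, 11 of 12 H3 and 5 of 6 H1 genes but in 4 of 12 H4 genes. The H3 and H1 genes without it were Hist1h3f and Hist1h1d. Their windows were set at GENCODE starts that lie 433 and 1828 bases before the coding sequence. The octamer occurred in 8 of 18 H2B and 7 of 18 H2A genes, which share windows, and in 0 genes of the other classes. The HINFP core was present in 8 of 12 H4 genes and also in 7 of 18 H2B, 5 of 18 H2A, 1 of 12 H3 and 0 of 6 H1 genes. In the 150 bases before the start it was in 8 of 12 H4, 1 of 18 H2B, 2 of 18 H2A and 1 of 12 H3 genes. In the region over the start it was in 6 of 9 H4, 8 of 9 H2B, 7 of 9 H2A and 1 of 8 H3 genes. The E2F core was present in 6 of 12 H4 genes, 1 of 18 H2B genes and 0 genes of the other classes. E2F cores numbered 4 at Hist1h4a.

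The letters were also counted in histone genes with and without a region, and the differences were not tested. CCAAT was present in 30 of 37 with a region and 26 of 29 without, TATAAA in 19 and 18, the octamer in 10 and 5, the HINFP core in 14 and 7, and the E2F core in 5 and 2. The hypoxia response element core was found in 11 of 37 with a region and 16 of 29 without. Among the H4 genes in the sequences above, Hist1h4a and Hist1h4h, the 2 with the highest level, have no exact GTCCGC in the window. Both printed sequences hold the shorter run GTCCG, and near matches of this kind were not counted. The 6 accessible H4 genes with GTCCGC ran from 2.63 to 5.00 log2 CPM and the 3 without it from 3.96 to 5.75.

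The 3′ ends shared one structure. A match to the histone stem-loop consensus lay within 200 bases after the stop codon in 61 of 66 histone genes, at 22 to 59 bases with a median of 32, and in 10 of 21787 other coding genes, among them H2afx, Hist4h4 and H2bfm. The stem-loops are 16 bases long and came in 8 forms. They are printed because the forms of H4 genes differ in the stem from those of the other classes, with the loop in capitals.

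Form 1: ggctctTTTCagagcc
Form 2: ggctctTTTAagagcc
Form 3: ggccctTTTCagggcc
Form 4: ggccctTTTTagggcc
Form 5: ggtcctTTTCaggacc
Form 6: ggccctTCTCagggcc
Form 7: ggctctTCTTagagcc
Form 8: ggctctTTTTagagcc

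Form 1 was carried by 38 genes of the H1, H2A, H2B and H3 classes, 21 of them with a region. Form 2 was carried by 9 genes of these classes, 6 with a region, and form 3 by 7 genes, all H4, of which 5 had a region. Forms 4 and 5 belonged to 2 H4 genes each, Hist1h4i and Hist2h4 for form 4 and Hist1h4j and Hist1h4b for form 5. Forms 6, 7 and 8 were found in 1 gene each, Hist1h4a, Hist1h3g and Hist2h2ac in that order. Hist1h2an, Hist1h2bp, Hist1h2bq, Hist1h2br and Hist2h2be had no match. The search depends on the annotated stop codon. Annotated coding sequences are longer at Hist1h2bp (414 bases), Hist1h2bq (402) and Hist1h2br (402) than at Hist2h2be (378). A missing match therefore need not mean that a gene lacks the stem-loop.

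Between the histone genes, but outside their promoters and bodies, lay 53 regions, all on chromosome 13. Their median level was 2.04 log2 CPM, below the 4.52 of the histone promoter regions and near the 2.12 of the other regions of the list. An overlap with tRNA genes was looked for after the values were seen: 28 of the 53 (52.8%) overlapped a RefSeq tRNA gene, against 111 of 94877 regions (0.117%) outside the clusters. tRNA genes, transcribed by RNA polymerase III, are known to cluster beside the histone genes, and 77 lie in this span.

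Accessible tRNA genes were no more frequent here than elsewhere, with 36 of 77 (46.8%) against 154 of 326 elsewhere on the chromosomes (47.2%). Their regions were lower in level, at a median of 2.57 against 4.95 log2 CPM. The 3 highest regions between histone genes were at the start of Zfp322a, a zinc finger gene, at 5.31, over the serine tRNA gene n-TSgct5 at 5.19, and at the start of Abt1, a basal transcription activator gene, at 5.01. Of the 53 regions, 9 lay at starts of other coding genes, with a median of 2.98, and 16 overlapped neither kind of gene, with a median of 1.23. A further 3 regions lay inside histone gene bodies, of which 2 are the RefSeq starts of Hist1h1d and Hist1h2be described above.

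**Figure D5:**
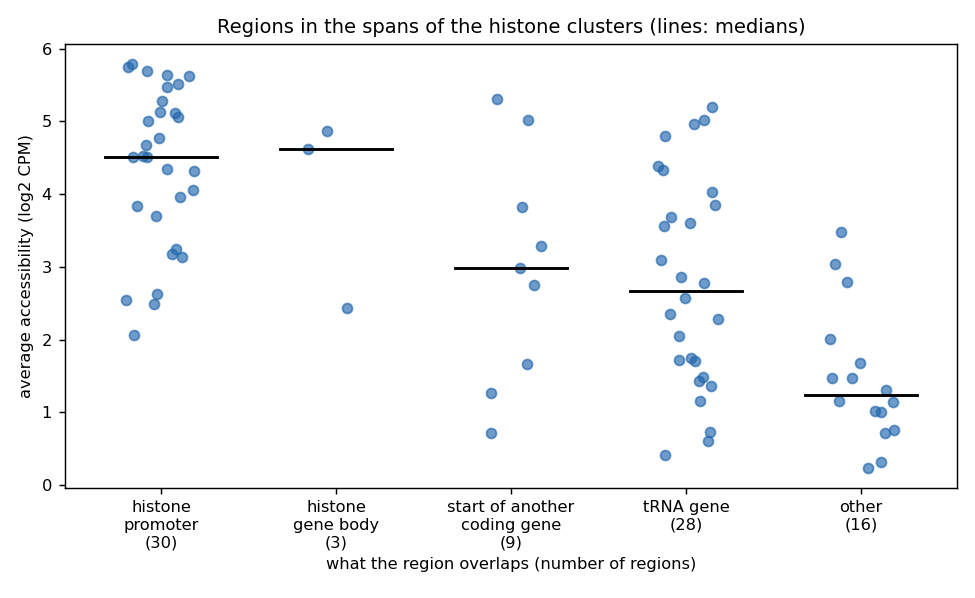
Average accessibility (log2 CPM, y axis) of the 86 regions in the spans of the histone clusters, by what they overlap (x axis, with the number of regions); lines are medians. Histone promoters have the highest median after the 3 gene body regions, and tRNA regions reach from 0.41 to 5.19.

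The longest stretch of the chromosome 13 span without any region, 1234 kb, separates the block that ends with Hist1h2bj from the one that starts with Hist1h4h. It contains no histone gene and the starts of 36 coding genes, all of them Vmn1r genes, which encode vomeronasal receptors.

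Genes on the lists chosen for comparison had a region about as often as other CpG-rich coding genes (91.9%). This was more often than for all other coding genes (64.1%), and the differences were not tested. A region lay within 1000 bp of a start in 16 of 17 genes for histone mRNA synthesis and processing, from Lsm10 at 4.70 to Ccne2 at 6.62 log2 CPM, with Npat at 6.34 and Slbp at 6.28. It lay at 12 of 12 histone chaperones, from Atrx at 4.25 to Asf1b at 6.75, at 11 of 12 proliferation markers, from Tyms at 3.56 to Pcna at 6.35, and at 76 of 79 ribosomal protein genes. Of a list of other histone genes, most of them for variants made also outside S phase or in place of the canonical proteins, 12 of 13 had a region, from H1foo at 3.89 to H2afv at 6.63. This list includes H2afx and Hist4h4, which carry the histone stem-loop.

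Some of these genes reached higher levels than the replication-dependent histones. The level of Hist3h2a, 5.79 log2 CPM, was exceeded by 10 of the 16 processing genes, 8 of the 12 chaperones, 4 of the 12 other histone genes and 2 of the 11 proliferation markers. Besides 3 ribosomal protein genes, the genes of these lists without a region were H2afx, Hinfp and Rrm2. H2afx and Hinfp lie in the same gap of 129.9 kb on chromosome 9 with 9 other coding genes.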

How the data were processed

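ATAC-seq libraries of 11 MPC2 samples in 4 groups were processed by the authors. Per the labels and methods, reads were trimmed with Trim Galore, aligned to mm10 with Bowtie2 and deduplicated with Picard 2.17.8, and reads of low mapping quality or from mitochondria were dropped. Peaks were called with MACS2 2.2.7.1 and merged over samples, regions overlapping the ENCODE blacklist were removed, and cuts were counted with pyDNase, filtered and TMM-normalised by the authors with edgeR 3.24.3. The authors left out a further sample over its quality. A Tn5 offset is not given in the sources used here. A merged region spans every peak that overlaps within it.

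The deposited list held 94963 regions, each with 1 log2 value and no header. The authors' value was read as average log2 CPM because 460 values fell below 0 and the antilogs summed to 1012761. It names no sample, so depth per sample is unknown, no error between replicates exists and no test, paired or not, was run.

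Coordinates are mm10 and 1-based, with genes from GENCODE and alternative starts, tRNA genes and sequence from RefSeq (GRCm38.p6). No region ran past a chromosome end. Overlaps, motifs and repeated words were computed with Python 3.11.15, numpy 2.4.6, pandas 2.3.3, scipy 1.17.1 and pysam 0.24.0, and figures were drawn with matplotlib 3.10.9. The overlap and repeated-word functions were checked on simulated data. Each gene was given the region over its start. Genes were named with values by a rule: in each class the 3 highest and 3 lowest by their highest region, every gene without a region, those on chromosomes 3 and 11, the testis histones and the 3 highest regions between genes; others were added after values were seen. The gene set and the lists were chosen with earlier results of these data known. Of 18 symbols listed for histone mRNA processing, 1, misspelt in the list, matched no gene. Amino acid sequences were not used here beyond counting identical translations.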

Additional observations from a re-analysis of the deposited data

How the results depend on the processing

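The number of histone genes with a region, 37, lay between 36 and 39 under all alternative definitions of starts, overlap and regions that were run, and the median level of their regions between 4.52 and 5.00 log2 CPM. The difference of that median from other coding promoter regions, 0.20, turned negative with only the most upstream start of each gene (-0.33), with only regions that hold a start (-0.24), with regions of at least 500 bp (-0.23), with regions of at least 3 log2 CPM (-0.36) and against CpG-rich promoters (-0.37), shrank to 0.03 within 500 bp of a start and 0.08 by region midpoint, and grew to 0.45 with regions within 500 bp joined, 0.74 within 2000 bp of a start and 0.79 against single-exon genes; the median of the histone regions was 4.52 to 4.73 in the settings that turned it negative, so the value compared with moved more than the histone value did. The median width became 1393.5 bp when regions within 500 bp were joined. Of 53 regions between genes, 6 were left when neighbouring histone genes had to lie within 50 kb, a narrower span by construction. Shares of promoter letters moved with the window, as longer windows hold more letters. In histone genes the HINFP core was at 31.8% in the main window, 18.2% in the 150 bases before the start and 59.5% in the region over it. In that region the E2F core was about as frequent as in all coding genes (27.0% each). The hypoxia response element core was there more frequent than in all coding genes (97.3% against 91.9%), the reverse of the main window. RefSeq starts were added as an alternative after seeing the data. No paired analysis was possible because samples have no values of their own in the list, and for the same reason leaving out replicates was not run. Repeated words of 36 or 100 bases changed no order between genes with and without a region except at 100 bases, where the medians were 18.7% and 17.5%. Unknown depth leaves it undecided whether a missing region is closed chromatin or was not detectable.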
